A study of Mus musculus with 15 samples.

Results

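The genes described here encode interferon beta (*Ifnb1*), the 4 chains of the receptors for type I and type II interferon (*Ifnar1*, *Ifnar2*, *Ifngr1* and *Ifngr2*) and the 4 Janus kinases (*Jak1*, *Jak2*, *Jak3* and *Tyk2*). They were taken by name, through the mouse symbols of their Ensembl identifiers. All 9 were found among the 51763 identifiers of the count table, and all 9 were among the 16919 genes that passed the filter on low counts.

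RNA was sequenced from 15 libraries of bone marrow-derived macrophages (BMDMs), 3 for each of 5 conditions, to compare 2 redox forms of the nuclear protein and danger signal HMGB1 with bacterial lipopolysaccharide (LPS). Marrow came from 5 wild type female C57BL/6NTac mice aged 8 to 10 weeks, and the cells were pooled before seeding. The libraries of a condition are therefore technical replicates. Every SD, SE and adjusted p below measures the spread between wells and libraries of 1 pool and not between mice.

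All cells were matured with 10 ng/mL M-CSF, for 10 days by the labels and 8 to 9 days by the methods of the study, and were stimulated for 24 h in medium with 1% serum. PBS was the unstimulated control. Fully reduced HMGB1 (frHMGB1) and disulfide HMGB1 (dsHMGB1) were each given at 5 µg/mL. The first was made in house and the second came from another laboratory, so redox form and source cannot be told apart in these groups. The labels describe HMGB1 stored without DTT, while the methods give buffers with DTT for frHMGB1. LPS-EK was given at 1 µg/mL in the LPS group. The LPS/IFNγ group received 20 ng/mL interferon gamma with LPS, and its LPS dose is uncertain. The treatment field states 1000 ng/mL, while the protocol text and the methods of the study both give 100 ng/mL.

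Interferon beta is the type I interferon that macrophages make when Toll-like receptor 4, the LPS receptor, signals through TRIF, TBK1 and IRF3. It binds IFNAR1 and IFNAR2, which carry TYK2 and JAK1, and the kinases phosphorylate STAT2, which acts with IRF9 to switch on interferon target genes. Interferon gamma binds IFNGR1 and IFNGR2, which carry JAK1 and JAK2, while JAK3 serves receptors that contain the common gamma chain, IL2RG.

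Library totals ran from 40934540 to 80925478 counts. PBS replicate 3 stood apart from the other libraries. The ferritin gene *Fth1* held 6.77% of its counts, against at most 2.897% for the top gene of any other library. Processed pseudogenes took 1.49% of its counts against 0.816% and 0.805% in the other PBS libraries, and mitochondrial genes took 0.346% against 0.840% and 0.890%. Its log2 CPM correlated with PBS replicates 1 and 2 at r = 0.944 and 0.939, while those replicates correlated at r = 0.998. *Jak1* and *Tyk2* in it were at 36.2% and 43.1% of the mean normalized count of the other PBS libraries, *Jak2* at 60.3% and *Ifngr2* at 107%. Results are given with this library and, where it matters, without it.

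Macrophage markers, led by *Lyz2*, summed to 21900 to 26200 CPM (counts scaled to library size) in PBS, 27000 to 27300 with frHMGB1, 19600 to 21000 with dsHMGB1, 16100 to 16800 with LPS and 13500 to 13900 with LPS/IFNγ, and all 8 of them passed the filter. The 8 did not move alike. From PBS to LPS/IFNγ, mean CPM fell for *Lyz2* (18500 to 9310), *Csf1r* (2710 to 1240), *Cd68* (1690 to 1090) and *Itgam* (167 to 121). It rose for *Mertk* (81.9 to 398), *Fcgr1* (108 to 163), *Cd14* (239 to 386) and *Adgre1* (910 to 1010). Markers of erythroid cells were at 0 in every library (3 of 3 genes), as were 4 of 7 T and NK cell markers. Mast cell and basophil markers summed to at most 0.281 CPM, and neutrophil markers to 5.47. T and NK cell markers summed to 0.152 to 0.402 CPM in PBS and 2.05 to 2.51 in LPS/IFNγ, and conventional dendritic cell markers to 4.23 to 5.29 and 13.9 to 15. Between these conditions the mean of *Cd247* went from 0 to 2.15 CPM and that of *Klrb1c* from 0.292 to 0.0813. *Zbtb46* and *Xcr1* went from 0.331 and 1.68 to 7.03 and 6.57 CPM, while *Clec9a* went from 2.6 to 0.918. Fibroblast and stromal markers summed to between 118 and 282 CPM, led by *Col1a1* at a mean of 104 CPM. Of the plasmacytoid dendritic cell markers, *Siglech* had 2 counts in all 15 libraries together, and the list was led by *Bst2* and *Tcf4*. *Bst2*, itself a known interferon target, had a mean of 115 CPM in PBS, 322 in LPS and 178 in LPS/IFNγ, *Tcf4* of 54.7, 189 and 213, and *Ccr9* of 0.205, 1.57 and 1.78. The list summed to 127 to 251 CPM in PBS, 354 to 427 CPM with dsHMGB1 and 507 to 519 CPM in LPS. Endothelial markers, led by *Kdr*, summed to 11.7 to 30.8 CPM in PBS, 63.9 to 81.4 CPM with dsHMGB1 and 98.9 to 104 CPM in LPS/IFNγ. *Cdh5* and *Pecam1* were at condition means of at most 1.11 CPM. B cell markers, led by *Ighm*, ranged from 37.8 to 41.1 CPM in PBS, from 11.2 to 12.6 CPM with dsHMGB1 and from 5.42 to 7.29 CPM in LPS. The part of these marker lists in the results below was not tested.

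*Ifnb1*, the ligand, was almost silent in resting cells and in cells given frHMGB1. Its raw counts were 4, 2 and 0 in the PBS libraries and 4, 0 and 0 in the frHMGB1 libraries. With dsHMGB1 the counts were 643, 586 and 496, with LPS 1199, 1321 and 1204, and with LPS/IFNγ 2795, 3120 and 3441. Divided by size factors, these were 473 ± 86.1 (SD, n = 3) normalized counts with dsHMGB1, 1765 ± 212 with LPS and 3131 ± 160 with LPS/IFNγ. The 3 groups with signal did not overlap each other or the low groups, and the PBS and frHMGB1 libraries overlapped. In bulk RNA, more cells that express a gene and more transcript per cell cannot be told apart.

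Because only 6 reads stood for *Ifnb1* in PBS and 4 in frHMGB1, ratios to these groups are given with exact 95% intervals that cover counting error alone. *Ifnb1* was 312 times higher with dsHMGB1 than with PBS (143 to 850.5) and 333 times higher than with frHMGB1 (129.9 to 1224). LPS gave a ratio to PBS of 1165 (535 to 3178) and LPS/IFNγ one of 2081 (956 to 5671). With 1 library left out, the log2 fold change ran from 7.94 to 9.18 for dsHMGB1 against PBS, 7.78 to 11.25 against frHMGB1, 9.84 to 11.08 for LPS and 10.66 to 11.91 for LPS/IFNγ against PBS, and the highest against frHMGB1 lies above the interval just given. All of these rises passed the edgeR test (adjusted p = 5.96e-09, 9.79e-09, 4.72e-10 and 2.13e-10). Between frHMGB1 and PBS the ratio was 0.935, with an interval of 0.194 to 3.94, so a difference within that interval was not detectable at this depth.

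Among the stimulated groups the *Ifnb1* level with dsHMGB1 was 3.73-fold lower than with LPS (log2 fold change -1.90 ± 0.17, SE, edgeR adjusted p = 0.00024) and 6.62-fold lower than with LPS/IFNγ (log2 fold change -2.73 ± 0.17, edgeR adjusted p = 6.15e-06). Cells given LPS/IFNγ had 1.77-fold more than cells given LPS (log2 fold change 0.83 ± 0.17, edgeR adjusted p = 0.0284). That last difference lost its call when any 1 of the 3 LPS or 3 LPS/IFNγ libraries was left out, with edgeR adjusted p of 0.073 to 0.139 and log2 fold changes of 0.73 to 0.91, and over all alternatives adjusted p ran from 1.07e-09 to 0.139. Per kb of exon, *Ifnb1* went from last of the 9 genes in PBS, at 1.71 normalized counts per kb, to the third in LPS/IFNγ, at 4174 per kb, after *Jak2* and *Jak1*. All these levels are from 24 h. Earlier and later times were not measured, so the order of the stimuli holds for that time alone.

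**Figure D1:**
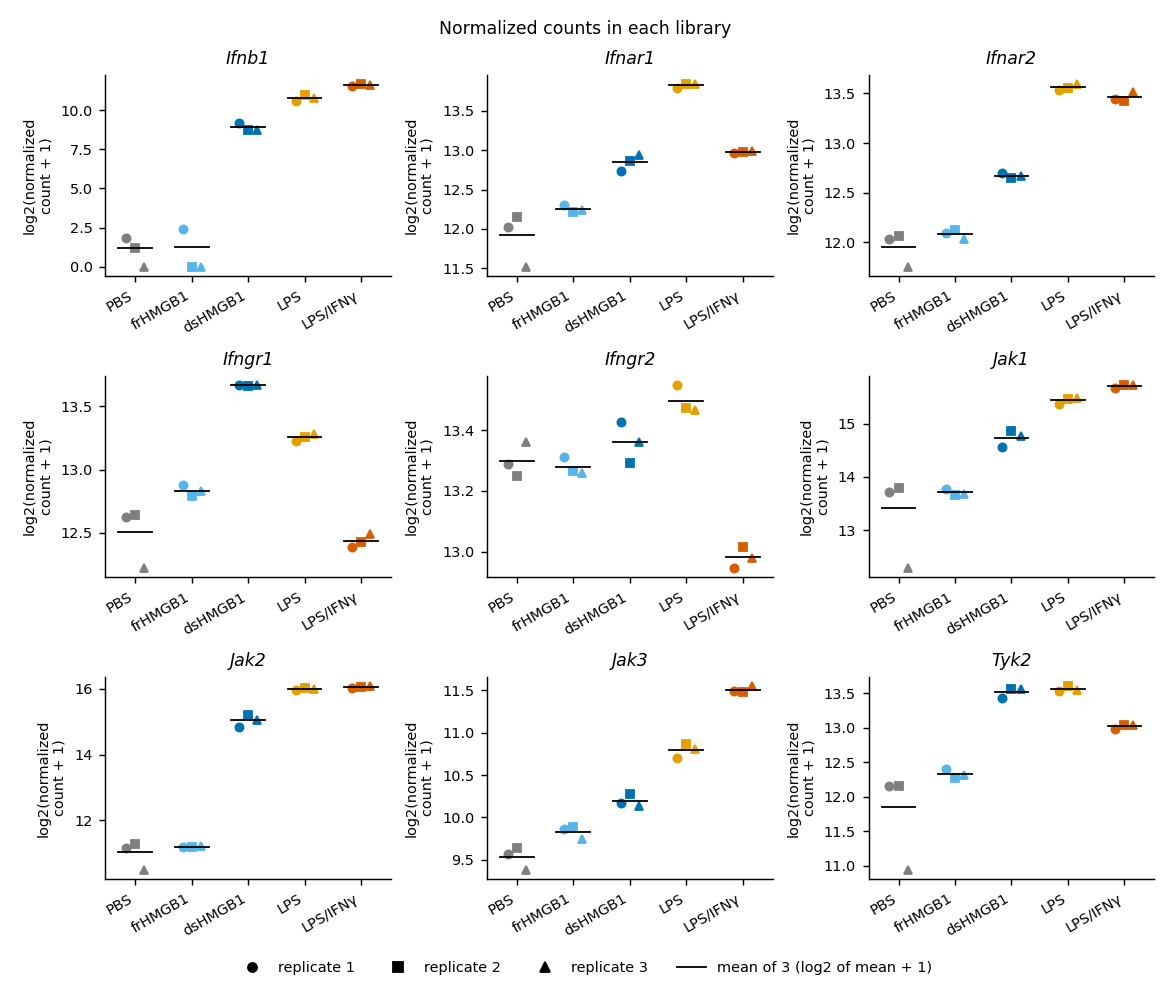
Normalized counts of the 9 genes in each of the 15 libraries, as log2(normalized count + 1) on the vertical axis of each panel, with its own range. Marker shapes give the replicate number and lines the mean of 3 libraries. PBS replicate 3 lies lowest of the PBS libraries for every gene but *Ifngr2*, and *Ifnb1* is near 0 in all PBS and frHMGB1 libraries.

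The sequence before the *Ifnb1* start is shown because this gene had the largest ratios of the 9 and its short promoter is a textbook case of NF-kB and IRF binding. In GRCm38 the gene lies at chr4:88522025-88522774 on the minus strand and has 750 bases of exon. The stretch below is chr4:88522865-88522944 (GRCm38.p6, minus strand, 80 bases, from RefSeq), upstream of the starts annotated by RefSeq and GENCODE. Capitals mark matches on either strand to the letters searched for NF-kB, GGG and CC with 5 bases between them.
Ifnb1: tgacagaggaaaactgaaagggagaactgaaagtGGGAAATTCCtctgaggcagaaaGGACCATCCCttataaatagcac
The letters searched for interferon-stimulated response elements, GAAA and GAAA with 2 bases between them, had no match in the window around the *Ifnb1* start. On both strands around the annotated starts of the 9 genes they were found in 0 of 9, against 3.49% of 27025 RefSeq windows. The NF-kB letters were found in 7 of 9 against 50.4%, those of a STAT site (GAS, TTC and GAA with 3 bases between them) in 2 of 9 against 8.47%, and those of AP-1 in 0 of 9 against 7.93%. A match is a run of letters and not a bound site, and its absence says only that the window lacks those letters. The printed *Ifnb1* stretch holds GAAA and GAAA with 3 bases between them (gaaaactgaaa), which the search with 2 bases could not mark.

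The other interferon genes were at or near 0. Of 20 ligands listed (alpha genes, *Ifnab*, *Ifne*, *Ifnk*, *Ifnz*, *Ifng* and the lambda genes), 9 had no read in any library and 1, *Ifna5*, passed the filter. *Ifna5* had 58 counts over the 3 LPS libraries and 31 over the LPS/IFNγ libraries, and 0 in the other 9 libraries. *Ifna4* had 17 and 11 counts in LPS and LPS/IFNγ, *Ifna2* 10 and 12, *Ifna9* 10 in each, and *Ifna14* 0 and 17. In dsHMGB1 *Ifna2* had 1 count, *Ifna9* 3 and the other 3 genes 0. The alpha genes are near-identical copies, so reads may have been assigned to a wrong member or dropped. *Ifng* had 5 counts in dsHMGB1, 7 in LPS/IFNγ and 0 elsewhere.

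Upstream of *Ifnb1*, the list of 17 sensor, adaptor, kinase and IRF genes had 13 genes called higher and 1 lower with dsHMGB1 against PBS, 12 and 1 with LPS, and 12 and 4 with LPS/IFNγ. Of all tested genes 23.3%, 26.7% and 29% were higher and 24.2%, 36.2% and 31.2% lower, and without PBS replicate 3 the list had 14 and 2, 12 and 2, and 12 and 4, beside 29.8% and 29%, 32.9% and 38.3%, and 33.3% and 34.4%. The median log2 fold changes were 1.04, 1.75 and 2.01, beside -0.10, -0.21 and -0.12 over all tested genes. *Ifih1*, the RNA sensor MDA5, stood at 1272 ± 454 normalized counts in PBS and rose by log2 fold changes of 5.96 ± 0.22 with dsHMGB1 (edgeR adjusted p = 6.92e-10) and 6.74 ± 0.22 with LPS (edgeR adjusted p = 1.68e-10). *Irf7*, which amplifies type I interferon transcription, went from 595 ± 102 in PBS to 31910 ± 2910 with dsHMGB1, 65070 ± 1620 with LPS and 34420 ± 1980 with LPS/IFNγ. *Cd14*, the LPS co-receptor, was at 73780 ± 7400 with dsHMGB1 and 96160 ± 3410 with LPS, but at 28220 ± 1490 with LPS/IFNγ, lower than with LPS (log2 fold change -1.77 ± 0.20, edgeR adjusted p = 5.8e-06). *Tmem173*, the adaptor STING, was named after its values were seen. It was at 2039 ± 39.9 in PBS, 2768 ± 99.2 with dsHMGB1, 3787 ± 78.4 with LPS and 29470 ± 909 with LPS/IFNγ. With frHMGB1 1 of the 17 genes was called, *Ikbke*, an IRF kinase also named after its values were seen (log2 fold change 0.49 ± 0.11, edgeR adjusted p = 0.00388), beside 1.31% of all tested genes higher and 5.69% lower. The count without PBS replicate 3 was 5, beside 8.41% and 9.09%.

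*Ifnar1*, the TYK2-binding chain of the type I receptor, was present in every library. PBS libraries held 4147, 4552 and 2928 normalized counts, frHMGB1 libraries 5047, 4742 and 4847, and dsHMGB1 libraries 6842, 7450 and 7875. LPS libraries held 14127, 14721 and 14678, and LPS/IFNγ libraries 7999, 8069 and 8110. No 2 neighbouring conditions overlapped, and the order from high to low was LPS, LPS/IFNγ, dsHMGB1, frHMGB1 and PBS. Of these steps, that between dsHMGB1 and LPS/IFNγ did not pass the test (log2 fold change -0.13 ± 0.14, edgeR adjusted p = 0.633) and turned to 0.20 under total count scaling (edgeR adjusted p = 0.422), and that between frHMGB1 and PBS did not pass it either (0.33 ± 0.14, edgeR adjusted p = 0.251). Against PBS, *Ifnar1* rose 3.74-fold with LPS (log2 fold change 1.90 ± 0.14, edgeR adjusted p = 1.54e-07) and 1.91-fold with dsHMGB1 (log2 fold change 0.93 ± 0.14, edgeR adjusted p = 0.000167). The rise with LPS/IFNγ was 2.08-fold (log2 fold change 1.06 ± 0.14, edgeR adjusted p = 3.77e-05), a call lost when libraries were scaled by total count in place of TMM (edgeR adjusted p = 0.101). Under the same scaling the log2 fold change with LPS was 1.18. Over all alternatives that with dsHMGB1 ran from 0.54 to 1.06. *Ifnar1* was lower with LPS/IFNγ than with LPS (log2 fold change -0.85 ± 0.14, edgeR adjusted p = 0.000968).

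*Ifnar2*, the JAK1-binding chain of the same receptor, was at 4205, 4269 and 3449 normalized counts in PBS, 4377, 4469 and 4187 with frHMGB1, and 6658, 6398 and 6514 with dsHMGB1. With LPS it was at 11901, 11993 and 12401 and with LPS/IFNγ at 11143, 10991 and 11690. PBS and frHMGB1 overlapped, dsHMGB1 lay between them and the LPS groups, and the lowest LPS library lay above the highest LPS/IFNγ library. *Ifnar2* rose 3.04-fold with LPS (log2 fold change 1.60 ± 0.08, edgeR adjusted p = 2.32e-08), 2.83-fold with LPS/IFNγ (1.50 ± 0.08, edgeR adjusted p = 3.31e-08) and 1.64-fold with dsHMGB1 (0.71 ± 0.08, edgeR adjusted p = 7.59e-05). Total count scaling gave *Ifnar2* log2 fold changes of 0.90, 0.81 and 0.34. LPS/IFNγ and LPS differed by a log2 fold change of -0.10 ± 0.08 that did not pass the test with all libraries in the fit (edgeR adjusted p = 0.702) and passed it with these conditions fitted alone (log2 fold change -0.09, edgeR adjusted p = 0.0254). Per kb of exon the ratio of *Ifnar1* to *Ifnar2* within a library was 0.663 to 0.688 with LPS and 0.389 to 0.412 with LPS/IFNγ. That ratio was 0.476 to 0.598 in PBS, 0.595 to 0.649 with frHMGB1 and 0.576 to 0.678 with dsHMGB1, so the LPS/IFNγ libraries lay below those of every other condition. A ratio within a library does not depend on scaling.

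*Ifngr1*, the ligand-binding chain of the interferon gamma receptor, had its highest level in dsHMGB1. PBS libraries held 6321, 6379 and 4766 normalized counts, frHMGB1 libraries 7542, 7078 and 7269.6, and dsHMGB1 libraries 13007, 12985 and 13027. LPS libraries held 9562, 9813 and 9965, and LPS/IFNγ libraries 5343, 5511 and 5737. Every dsHMGB1 library lay above every library of the other conditions, and PBS and LPS/IFNγ overlapped. The level with dsHMGB1 was 2.23-fold that in PBS (log2 fold change 1.16 ± 0.10, edgeR adjusted p = 2.96e-06) and 2.35-fold that in LPS/IFNγ (log2 fold change 1.23 ± 0.10, edgeR adjusted p = 2.71e-06). Against LPS it was 1.33-fold higher (log2 fold change 0.41 ± 0.10, edgeR adjusted p = 0.00956), a call that missed the threshold without LPS replicate 1 (edgeR adjusted p = 0.0509). LPS raised *Ifngr1* 1.68-fold over PBS (log2 fold change 0.75 ± 0.10, edgeR adjusted p = 0.000211), but under total count scaling this was a log2 fold change of 0.03 and no call (edgeR adjusted p = 0.855). LPS/IFNγ against PBS gave -0.08 ± 0.10 (edgeR adjusted p = 0.444), and without PBS replicate 3 it gave -0.21 ± 0.05, a call (edgeR adjusted p = 0.000176). Total count scaling gave a log2 fold change of -0.78, also a call (edgeR adjusted p = 0.000459).

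*Ifngr2*, the signalling chain that carries JAK2, had 1.43-fold between its highest and lowest condition mean, the least of the 9 genes with the scaling used here. Under total count scaling its log2 fold changes against PBS ran from 0.026 with frHMGB1 to -0.998 with LPS/IFNγ, a wider range than that of *Ifnar2*, whose highest was 0.90. It was at 9997, 9729 and 10512 normalized counts in PBS, 10163, 9853 and 9797 with frHMGB1, and 11001, 10023 and 10528 with dsHMGB1. With LPS it was at 11979, 11367 and 11324 and with LPS/IFNγ at 7890.4, 8290.2 and 8081. The LPS/IFNγ libraries were the lowest 3 of the 15 and the LPS libraries the highest 3. *Ifngr2* was lower with LPS/IFNγ than with PBS (log2 fold change -0.32 ± 0.06, edgeR adjusted p = 0.00105), a call lost with no filter (edgeR adjusted p = 0.0579) and with these conditions fitted alone (edgeR adjusted p = 0.0838), and lower than with LPS (log2 fold change -0.52 ± 0.06, edgeR adjusted p = 0.000262). Against PBS, LPS gave a log2 fold change of 0.20 ± 0.06 (edgeR adjusted p = 0.115), which was a call with RLE factors (edgeR adjusted p = 0.03), without PBS replicate 3 (0.22, edgeR adjusted p = 0.0131), without dsHMGB1 replicate 1 (edgeR adjusted p = 0.049) and with DESeq2 (DESeq2 adjusted p = 0.000704), and turned to a called fall under total count scaling (-0.49, edgeR adjusted p = 0.000245). With dsHMGB1 the log2 fold change was 0.06, with a 95% interval of -0.05 to 0.17 (edgeR adjusted p = 0.563), and -0.30 under total count scaling (edgeR adjusted p = 0.0127).

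Within libraries the ratio of *Ifngr1* to *Ifngr2*, per kb of exon, separated dsHMGB1 from the rest without any scaling. It was 1.56 to 1.71 with dsHMGB1, 1.06 to 1.16 with LPS, 0.951 to 0.982 with frHMGB1, 0.880 to 0.939 with LPS/IFNγ, and 0.837, 0.868 and 0.600 in PBS replicates 1, 2 and 3. Ligand-binding chain transcripts thus exceeded signalling chain transcripts per kb in the dsHMGB1 and LPS libraries and in none of the other 9. The side of 1 on which a ratio falls depends on the exon lengths used, 2.847 kb for *Ifngr1* and 3.767 kb for *Ifngr2*. These are merged exons, and the lengths of the expressed transcripts were not tested.

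**Figure D2:**
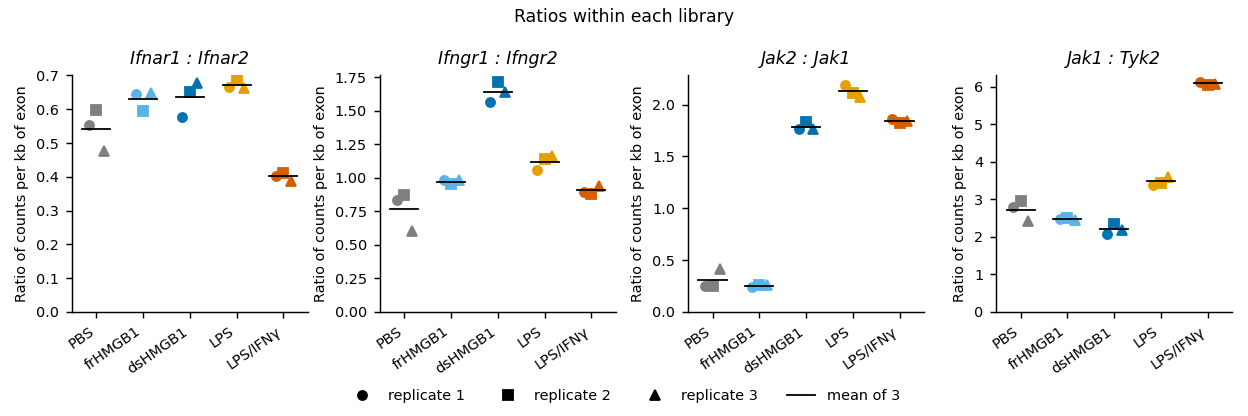
Ratios of normalized counts per kb of exon within each library for 2 receptor pairs and 2 kinase pairs. Markers are libraries by replicate number and lines are means of 3. dsHMGB1 libraries have the highest *Ifngr1* to *Ifngr2* ratios (1.56 to 1.71), and LPS/IFNγ libraries the lowest *Ifnar1* to *Ifnar2* (0.389 to 0.412) and the highest *Jak1* to *Tyk2* ratios (6.05 to 6.12).

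Of the 4 receptor genes 3 lie in 1 cluster on chromosome 16 together with *Il10rb*, the shared chain of the IL-10 and interferon lambda receptors. In GRCm38 the cluster runs on the plus strand from *Ifnar2* (chr16:91372783-91405589) through *Il10rb* (chr16:91406164-91425834) and *Ifnar1* (chr16:91485238-91507441) to *Ifngr2* (chr16:91547072-91565623), a span of 193 kb. *Ifnar2* ends 574 bases before *Il10rb* begins. The neighbours did not move alike. *Il10rb* was at 10450 ± 1590 normalized counts in PBS, 10560 ± 25.2 with frHMGB1, 9339 ± 643 with dsHMGB1, 12420 ± 433 with LPS and 8637 ± 264 with LPS/IFNγ. Its log2 fold change with LPS/IFNγ against PBS was -0.28 ± 0.10 (edgeR adjusted p = 0.0118), and -0.15 without PBS replicate 3 (edgeR adjusted p = 0.00538), while *Ifnar1* and *Ifnar2* rose. With LPS *Il10rb* was not called (0.25 ± 0.10, edgeR adjusted p = 0.0774) and was called higher without that library (0.37, edgeR adjusted p = 0.000196). *Il10ra*, the other IL-10 receptor chain, rose from 6867 ± 307 in PBS to 45440 ± 622 with LPS/IFNγ (log2 fold change 2.73 ± 0.06, edgeR adjusted p = 1.12e-11), and *Ifnlr1* had 2 counts in all libraries together. *Ifngr1* lies on its own at chr10:19591949-19610229 on the plus strand.

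A stretch upstream of 2 of these neighbouring starts is given as an example from RefSeq (GRCm38.p6, plus strand). For *Ifnar2*, chr16:91372548-91372597 (50 bases), the capitals mark a match to the GAS letters. For *Ifngr2*, chr16:91546963-91547022 (60 bases), they mark the NF-kB letters on either strand, and the first run holds overlapping matches on both strands. The *Ifnar2* window also has 2 matches to the NF-kB letters, which lie at its start and outside the printed bases.
Ifnar2: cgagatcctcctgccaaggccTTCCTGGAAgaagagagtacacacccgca
Ifngr2: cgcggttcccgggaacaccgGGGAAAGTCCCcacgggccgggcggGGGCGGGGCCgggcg
*Ifngr2* had 4 matches to the NF-kB letters in its window, and those of *Jak2*, described next, lay just downstream of its RefSeq start.

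*Jak2*, the kinase of the interferon gamma and GM-CSF receptors, changed most after *Ifnb1*. PBS libraries held 2293, 2485 and 1441 normalized counts and frHMGB1 libraries 2313, 2308 and 2392. Levels with dsHMGB1 were 29623, 38012 and 34207, with LPS 64694, 66317 and 65446, and with LPS/IFNγ 67575, 68393 and 69275. The 3 stimulated groups were far above the other 2 and did not overlap each other. *Jak2* rose 16.4-fold with dsHMGB1 (log2 fold change 4.03 ± 0.17, edgeR adjusted p = 1.39e-09), 31.6-fold with LPS (4.98 ± 0.17, edgeR adjusted p = 1.6e-10) and 33-fold with LPS/IFNγ (5.04 ± 0.17, edgeR adjusted p = 1.28e-10). Without PBS replicate 3 the folds were 14.2, 27.3 and 28.4, and under total count scaling the log2 fold changes were 3.64, 4.25 and 4.33. The level with dsHMGB1 was 1.93-fold below that with LPS (log2 fold change -0.95 ± 0.17, edgeR adjusted p = 0.00185), and LPS/IFNγ and LPS differed by 0.06 ± 0.17, with a 95% interval of -0.27 to 0.40 (edgeR adjusted p = 0.737). *Jak2* lies at chr19:29251828-29313080 on the plus strand.

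*Jak1*, the kinase shared by both interferon receptors, had the most transcripts per kb of the kinases in PBS and rose with all stimuli but frHMGB1. It was at 13446, 14124 and 4985 normalized counts in PBS, 14001, 12996 and 13111 with frHMGB1, and 24097, 29857 and 27804 with dsHMGB1. With LPS it was at 42391, 45014 and 45410 and with LPS/IFNγ at 52218, 53848 and 54082. PBS and frHMGB1 overlapped only through PBS replicates 1 and 2, since the third was far below them, and the other groups were separate. The rises over PBS were 2.51-fold with dsHMGB1 (log2 fold change 1.33 ± 0.29, edgeR adjusted p = 0.00212), 4.08-fold with LPS (2.03 ± 0.29, edgeR adjusted p = 6.24e-05) and 4.92-fold with LPS/IFNγ (2.30 ± 0.29, edgeR adjusted p = 1.71e-05). Without PBS replicate 3 they were 1.97-, 3.19- and 3.85-fold with SEs of 0.08 on the log2 scale. The dsHMGB1 rise missed the threshold with these conditions fitted alone (edgeR adjusted p = 0.0567). Under total count scaling the *Jak1* log2 fold changes were 0.91, 1.28 and 1.56.

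Between the stimulated groups, calls on *Jak1* differed with and without PBS replicate 3, since all groups share 1 estimate of the spread. LPS/IFNγ against LPS gave a log2 fold change of 0.27 ± 0.29 with it (edgeR adjusted p = 0.488) and 0.27 ± 0.07 without it (edgeR adjusted p = 0.00295). dsHMGB1 against LPS gave -0.70 ± 0.29 with it (edgeR adjusted p = 0.117) and -0.70 ± 0.07 without it (edgeR adjusted p = 1.25e-07). The groups did not overlap in either comparison.

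*Tyk2*, the kinase on IFNAR1, showed another order, with dsHMGB1 level with LPS. Its normalized counts were 4562, 4556 and 1966 in PBS, 5397, 4942 and 5117 with frHMGB1, and 11051, 12102 and 12131 with dsHMGB1. LPS libraries held 11899, 12440 and 11972, and LPS/IFNγ libraries 8108, 8457 and 8449. The dsHMGB1 and LPS libraries overlapped, and LPS/IFNγ lay between them and frHMGB1. *Tyk2* rose 3.18-fold with dsHMGB1 (log2 fold change 1.67 ± 0.24, edgeR adjusted p = 9.76e-05), 3.27-fold with LPS (1.71 ± 0.24, edgeR adjusted p = 6.48e-05) and 2.26-fold with LPS/IFNγ (1.17 ± 0.24, edgeR adjusted p = 0.0012, and 0.167 under total count scaling). That scaling gave *Tyk2* log2 fold changes of 1.26, 0.97 and 0.44. dsHMGB1 and LPS differed by -0.04 ± 0.24, with a 95% interval of -0.52 to 0.43 (edgeR adjusted p = 0.983). LPS/IFNγ against LPS gave a log2 fold change of -0.54 ± 0.24 that was not called with all libraries (edgeR adjusted p = 0.155) and was called lower without PBS replicate 3 (edgeR adjusted p = 1.07e-07). Against LPS/IFNγ, dsHMGB1 gave 0.50 ± 0.24 (edgeR adjusted p = 0.126), and 0.50 ± 0.05 without that library (edgeR adjusted p = 9.55e-08).

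*Jak3*, the kinase of common gamma chain receptors, was the least abundant kinase per kb in every condition. It was at 759.7, 793 and 667 normalized counts in PBS, 932, 941 and 856 with frHMGB1, and 1153, 1234 and 1125 with dsHMGB1. With LPS it was at 1664, 1867 and 1795 and with LPS/IFNγ at 2875, 2859 and 2991. The 5 conditions did not overlap, in the order LPS/IFNγ, LPS, dsHMGB1, frHMGB1 and PBS. *Jak3* rose 3.92-fold with LPS/IFNγ (log2 fold change 1.97 ± 0.09, edgeR adjusted p = 2.78e-09), 2.39-fold with LPS (1.26 ± 0.09, edgeR adjusted p = 3.74e-07) and 1.58-fold with dsHMGB1 (0.66 ± 0.09, edgeR adjusted p = 0.000186, and 0.0783 under total count scaling). With that scaling the log2 fold changes of *Jak3* were 1.28, 0.56 and 0.29. It was 1.64-fold higher with LPS/IFNγ than with LPS (log2 fold change 0.71 ± 0.08, edgeR adjusted p = 0.000135). *Jak3* shares 404 exonic bases with *Insl3* on the same strand, which had 77 counts in all against 22362 for *Jak3*.

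Expressed as shares of the 4 kinases per kb of exon, *Jak1* held the largest share in every PBS and frHMGB1 library and *Jak2* in every other library. *Jak1* held 59.6%, 59.9% and 49.7% in the PBS libraries and 56.8% to 57.7% with frHMGB1, and *Jak2* held 14.6%, 15.2% and 20.7% and 13.7% to 14.9%. With dsHMGB1 *Jak2* held 53.3% to 55.2%, with LPS 60.9% to 61.9% and with LPS/IFNγ 59.6% to 60.03%, while *Jak1* held 28.2% to 32.7% over these 9 libraries. The *Tyk2* share was 20.4% to 21.3% in PBS, 22.8% to 23.4% with frHMGB1, 12.9% to 14.6% with dsHMGB1, 8.16% to 8.40% with LPS and 5.28% to 5.40% with LPS/IFNγ. *Jak2* exceeded *Jak1* in all 9 stimulated libraries, by 1.77- to 2.19-fold, and was at 0.237 to 0.415 of it in the 6 PBS and frHMGB1 libraries. These shares too are free of scaling, but they depend on the exon lengths used.

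**Figure D3:**
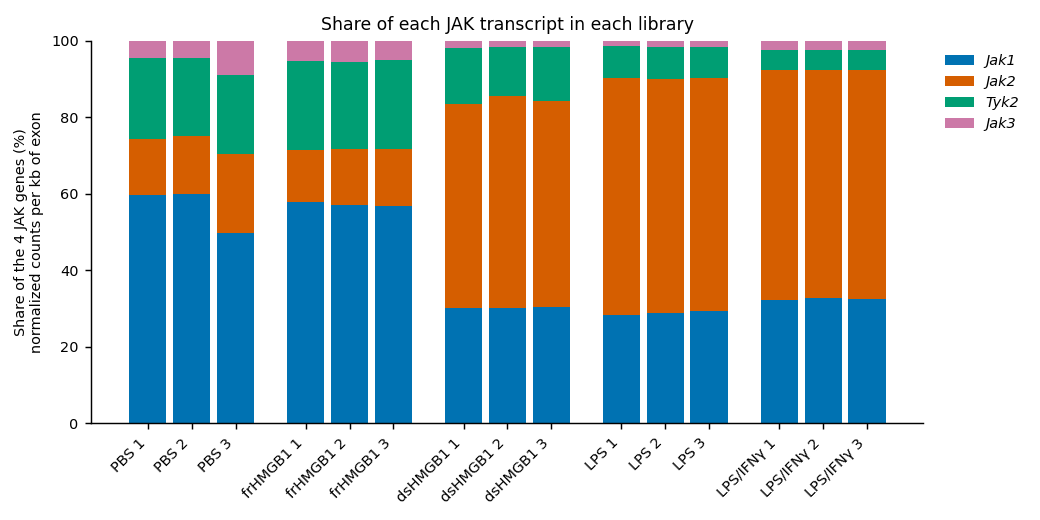
Share of each kinase transcript in the sum of the 4, from normalized counts per kb of exon, for each library (bars add to 100%). *Jak2* goes from 13.7% to 20.7% in PBS and frHMGB1 libraries to 53.3% to 61.9% in the other libraries.

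Set beside all tested genes, the 9 were called as follows. With frHMGB1 against PBS, edgeR called 0 of 9 higher and 0 lower, where 1.31% of all tested genes were called higher and 5.69% lower. These shares depended on the genes and libraries in the fit. With protein-coding genes alone, 0 of the 9 were called, beside 41 higher and 29 lower of 13025 genes. With these conditions fitted alone, 7 of 14887 genes were higher and 182 lower. DESeq2 called 2 of 9, and over all 16919 genes it called 502 higher and 1258 lower. Without PBS replicate 3 edgeR called 2 higher, *Ifngr1* (log2 fold change 0.20 ± 0.05, edgeR adjusted p = 0.0167) and *Jak3* (0.23 ± 0.08, edgeR adjusted p = 0.0478), with 8.41% of all tested genes higher and 9.09% lower. With that library, *Tyk2* had the largest log2 fold change of the 9, 0.48 ± 0.24 (edgeR adjusted p = 0.358), and without it 0.18 ± 0.06 (edgeR adjusted p = 0.0556).

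dsHMGB1 against PBS gave 8 of 9 higher and 0 lower, beside 23.3% and 24.2% of all tested genes, the exception being *Ifngr2*. LPS against PBS also gave 8 higher and 0 lower, beside 26.7% and 36.2%, again with *Ifngr2* left out, and 9 higher without PBS replicate 3, beside 32.9% higher and 38.3% lower in that fit. LPS/IFNγ against PBS gave 7 higher and 1 lower (*Ifngr2*), beside 29% and 31.2%, and 7 and 2 without PBS replicate 3, beside 33.3% and 34.4%. Under total count scaling 7 were higher and 1 lower with dsHMGB1, 7 and 1 with LPS, and 5 and 2 with LPS/IFNγ, where 2615 and 6689, 2653 and 9458, and 2976 and 8782 of all 16919 tested genes were. These comparisons share the PBS libraries and are not independent of each other. The median log2 fold change of the 9 genes was 1.16 with dsHMGB1, 1.71 with LPS and 1.50 with LPS/IFNγ.

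Addition of interferon gamma to LPS gave 2 higher (*Ifnb1* and *Jak3*) and 3 lower (*Ifnar1*, *Ifngr1* and *Ifngr2*) against LPS, beside 16.3% and 9.36% of all tested genes. The doses of LPS in these groups may differ. Without PBS replicate 3 the counts were 3 and 4, and with these conditions fitted alone 8 of the 9 were called in either direction. The calls over all genes grew too, to 25.1% higher and 24.3% lower without PBS replicate 3, and to 4564 higher and 4435 lower of 14738 genes with the conditions fitted alone. dsHMGB1 against LPS gave 1 higher (*Ifngr1*) and 5 lower, beside 15.8% and 10.6%. Of these 5, *Jak3* (log2 fold change -0.60 ± 0.09, edgeR adjusted p = 0.00162) lost its call under total count scaling (-0.27, edgeR adjusted p = 0.143). dsHMGB1 against LPS/IFNγ gave 2 higher (*Ifngr1* and *Ifngr2*) and 5 lower, beside 16.5% and 16.7%. Of these 5, *Jak1* (log2 fold change -0.97 ± 0.29, edgeR adjusted p = 0.0194) lost its call without dsHMGB1 replicate 1 or 3 or LPS/IFNγ replicate 2 or 3 (edgeR adjusted p = 0.0543 to 0.0812) and under total count scaling (edgeR adjusted p = 0.126). In these 3 comparisons *Ifnb1* had log2 fold changes of 0.83, -1.90 and -2.73, and *Ifngr1* of -0.82, 0.41 and 1.23.

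The 2 HMGB1 preparations, which differ in redox form and in source, were compared at matched dose and time. dsHMGB1 against frHMGB1 gave 8 of 9 higher and 0 lower, beside 27.7% and 23.1%. *Jak2* was 14.5-fold higher with dsHMGB1 (log2 fold change 3.86 ± 0.17, edgeR adjusted p = 2.25e-09), *Tyk2* 2.28-fold (1.19 ± 0.24, edgeR adjusted p = 0.00131), *Jak1* 2.04-fold (1.03 ± 0.29, edgeR adjusted p = 0.00989) and *Ifngr1* 1.78-fold (0.83 ± 0.10, edgeR adjusted p = 7.07e-05). Smaller rises of 1.52-fold for *Ifnar1*, 1.50-fold for *Ifnar2* and 1.29-fold for *Jak3* were called too. Over all alternatives the log2 fold change ran from 0.43 to 0.889 for *Ifngr1* and from 0.787 to 1.246 for *Tyk2*. Under total count scaling 5 of 9 were called, where 3337 of all 16919 tested genes were called higher and 6340 lower. *Ifnar1*, *Ifnar2* and *Jak1* were no longer called (edgeR adjusted p = 0.366, 0.263 and 0.106). *Jak3* was at a log2 fold change of -0.04 (edgeR adjusted p = 0.805), and *Ifngr2* was called lower at -0.32 (edgeR adjusted p = 0.00739). The *Jak3* call was also lost without frHMGB1 replicate 3 (edgeR adjusted p = 0.0717) and without dsHMGB1 replicate 2 (edgeR adjusted p = 0.0643).

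**Figure D4:**
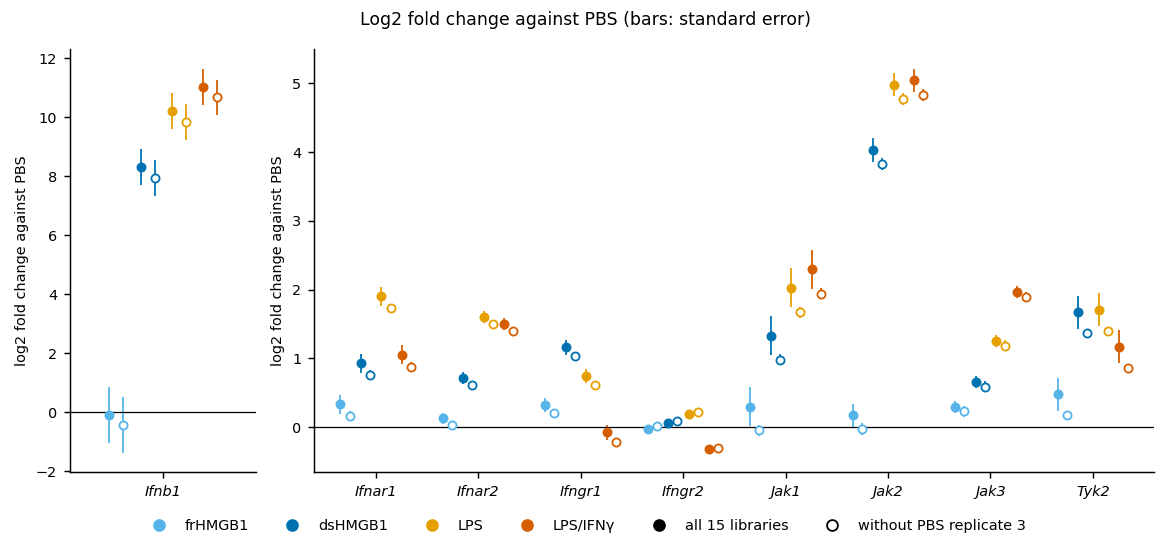
Log2 fold change against PBS of the 9 genes in the 4 stimulated conditions, with standard errors as bars. Filled points use all 15 libraries and open points leave out PBS replicate 3. *Jak2* lies at 4.03, 4.98 and 5.04 with dsHMGB1, LPS and LPS/IFNγ, and *Ifngr2* between -0.32 and 0.20 over the filled points.

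Downstream of the kinases, *Stat2*, *Stat3* and *Irf9* were each called higher with dsHMGB1, LPS and LPS/IFNγ against PBS, and not with frHMGB1. *Stat2*, which serves the type I receptor, went from 2199 ± 369 normalized counts in PBS to 39540 ± 3140 with dsHMGB1, 52610 ± 2460 with LPS and 41690 ± 143 with LPS/IFNγ. *Irf9*, the DNA-binding partner of STAT2, was highest with LPS, at 8038 ± 29.1, and lower with LPS/IFNγ, at 4306 ± 22.9 (log2 fold change -0.90 ± 0.08, edgeR adjusted p = 3.09e-05). *Stat3*, which serves IL-6 and IL-10 receptors, was higher with LPS/IFNγ than with LPS (log2 fold change 0.67 ± 0.14, edgeR adjusted p = 0.00295).

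Inhibitors of the pathway were called higher for 9 of 14 genes with dsHMGB1, 11 with LPS and 11 with LPS/IFNγ against PBS, and lower for 1, 0 and 1. Of all tested genes 23.3%, 26.7% and 29% were higher and 24.2%, 36.2% and 31.2% lower. Without PBS replicate 3 the higher calls were the same, beside 29.8%, 32.9% and 33.3%, and the lower calls were 2, 2 and 3, beside 29%, 38.3% and 34.4%. The median log2 fold changes were 1.39, 1.50 and 1.44. With frHMGB1 2 were called higher, *Socs3* and *Ptpn6*, and 0 lower, beside 1.31% and 5.69% of all tested genes. These counts were the same without PBS replicate 3, beside 8.41% and 9.09%. *Socs3*, a JAK inhibitor, had 78.9 ± 12.9 normalized counts in PBS, 175 ± 60.7 with frHMGB1, 25860 ± 2370 with dsHMGB1, 104800 ± 4820 with LPS and 88410 ± 1010 with LPS/IFNγ. The level with frHMGB1 was a called rise over PBS (log2 fold change 1.14 ± 0.22, edgeR adjusted p = 0.00437, and 0.00142 without PBS replicate 3). *Socs1*, the main inhibitor of interferon gamma signalling, was at 59.3 ± 14.4 in PBS, 7695 ± 1440 with dsHMGB1, 11850 ± 355 with LPS and 20730 ± 705 with LPS/IFNγ. *Usp18*, which blocks the type I receptor at IFNAR2, was at 185.5 ± 66.6, 16410 ± 2270, 36760 ± 660 and 18390 ± 1210 in the same 4 conditions. The phosphatase genes *Ptprc* and *Ptpn6* were the other inhibitors of highest level, and *Ptpn6* was higher with dsHMGB1 than with LPS (log2 fold change 0.50 ± 0.11, edgeR adjusted p = 0.000438) and with frHMGB1 than with PBS (0.29 ± 0.11, edgeR adjusted p = 0.048).

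Type I interferon targets, 16 genes of antiviral function, were all called higher with dsHMGB1, LPS and LPS/IFNγ against PBS, with median log2 fold changes of 6.86, 7.80 and 6.88, beside 23.3%, 26.7% and 29% of all tested genes called higher. With frHMGB1 none were called, beside 1.31% of all tested genes higher and 5.69% lower, and 5 were called higher without PBS replicate 3, beside 8.41%. *Rsad2*, the antiviral enzyme viperin, was at 1087 ± 324 normalized counts in PBS, 406200 ± 28800 with dsHMGB1, 683300 ± 22600 with LPS and 246700 ± 16200 with LPS/IFNγ. *Cmpk2*, its neighbour on the chromosome, had means in the same order, with 204800 ± 7610, 469700 ± 9200 and 181600 ± 9000 in the stimulated groups. For *Cmpk2* the step between dsHMGB1 and LPS/IFNγ did not pass the test (log2 fold change 0.17 ± 0.30, edgeR adjusted p = 0.686). *Cxcl10*, a chemokine, was at 187 ± 129 in PBS, 187500 ± 19800 with dsHMGB1, 382600 ± 1140 with LPS and 283200 ± 7000 with LPS/IFNγ. *Ifit2* was at 1281 ± 489, 209700 ± 22600, 336300 ± 11700 and 267600 ± 11800 in the same order. For these 2 genes the mean with dsHMGB1 was below that with LPS/IFNγ, and for *Rsad2* and *Cmpk2* above it. Of these differences, that of *Rsad2* was called (log2 fold change 0.72 ± 0.18, edgeR adjusted p = 0.00581). Those of *Cxcl10* (-0.595 ± 0.36, edgeR adjusted p = 0.233), *Ifit2* (-0.35 ± 0.27, edgeR adjusted p = 0.384) and *Cmpk2* were not called. Over the list, 3 genes were called higher and 5 lower with dsHMGB1 than with LPS/IFNγ (median log2 fold change -0.36), beside 16.5% and 16.7% of all tested genes, and 5 higher and 8 lower without PBS replicate 3, beside 27.9% and 25.4%. Against LPS, 0 of the 16 were higher and 6 lower with LPS/IFNγ, where 16.3% and 9.36% of all tested genes were, and 0 higher and 9 lower with dsHMGB1, beside 15.8% and 10.6%. Lower calls without PBS replicate 3 were 10 and 16, beside 24.3% and 23.3% of all tested genes.

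Interferon gamma targets, 16 genes, were called higher for 13, 14 and 13 genes with dsHMGB1, LPS and LPS/IFNγ against PBS, beside 23.3%, 26.7% and 29% of all tested genes, and for all 16 in each case without PBS replicate 3, beside 29.8%, 32.9% and 33.3%. Against LPS, 8 were higher and 2 lower with LPS/IFNγ, beside 16.3% and 9.36% of all tested genes, and 0 higher and 7 lower with dsHMGB1, beside 15.8% and 10.6%. They were 10 and 4, and 0 and 14, without PBS replicate 3, beside 25.1% and 24.3%, and 25.6% and 23.3%. With dsHMGB1 against LPS/IFNγ 1 was higher and 11 lower (median log2 fold change -1.3), beside 16.5% and 16.7%. Without PBS replicate 3 these were 4 and 12, beside 27.9% and 25.4%. With frHMGB1 against PBS none were called, beside 1.31% of all tested genes higher and 5.69% lower. Without that PBS library 4 were called higher with frHMGB1, beside 8.41%. *Gbp2*, a guanylate-binding protein, was at 1207 ± 253 normalized counts in PBS, 128600 ± 1850 with dsHMGB1, 258900 ± 4940 with LPS and 701400 ± 10500 with LPS/IFNγ. *Irf8* was at 26850 ± 1010 with dsHMGB1, 101500 ± 4940 with LPS and 426700 ± 11400 with LPS/IFNγ. *Gbp5* rose by a log2 fold change of 9.81 ± 0.32 with dsHMGB1 (edgeR adjusted p = 6.93e-10). *Cd74*, the class II chaperone, was not called with dsHMGB1 (log2 fold change 0.24 ± 0.25, edgeR adjusted p = 0.347), and was without PBS replicate 3 (0.72, edgeR adjusted p = 1.57e-07).

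**Figure D5:**
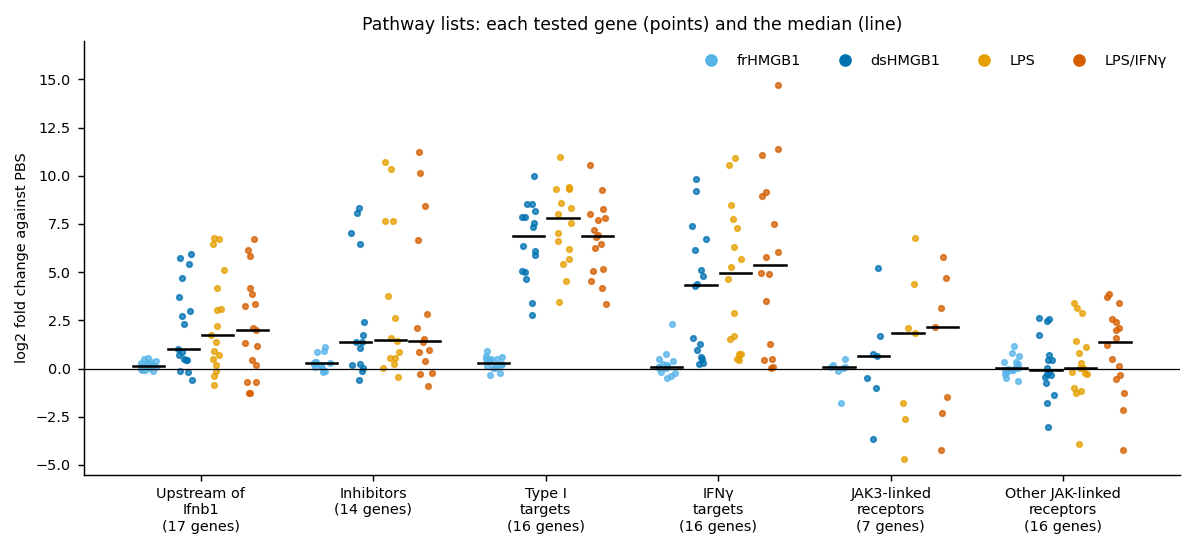
Log2 fold change against PBS of every tested gene of 6 pathway lists (points) in the 4 stimulated conditions, with the list median as a line. Type I interferon targets have medians of 6.86, 7.80 and 6.88 with dsHMGB1, LPS and LPS/IFNγ and 0.30 with frHMGB1.

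Receptor chains that use the kinases were also counted. Of 7 tested chains linked to JAK3, 3 were called higher and 3 lower with dsHMGB1 against PBS, 4 and 3 with LPS, and 4 and 2 with LPS/IFNγ, beside 23.3% and 24.2%, 26.7% and 36.2%, and 29% and 31.2% of all tested genes. These counts were the same without PBS replicate 3, beside 29.8% and 29%, 32.9% and 38.3%, and 33.3% and 34.4%. *Il2rg*, the common gamma chain to which JAK3 binds, was at 1980 ± 586 normalized counts in PBS, 2019 ± 84.7 with frHMGB1, 6295 ± 416 with dsHMGB1, 8483 ± 251 with LPS and 8873 ± 276 with LPS/IFNγ. *Il4ra* was highest with LPS/IFNγ, at 31530 ± 700, against 3638 ± 171 in PBS. *Il15ra* was highest with LPS, at 14020 ± 538, against 128 ± 23.7. *Il7r* fell with all 3 stimuli, by log2 fold changes of -1.02 ± 0.27 with dsHMGB1 (edgeR adjusted p = 0.00648), -1.77 ± 0.27 with LPS (edgeR adjusted p = 6.37e-05) and -1.48 ± 0.27 with LPS/IFNγ (edgeR adjusted p = 0.000301).

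Of 16 tested chains of other cytokine receptors, 5 were called higher and 4 lower with dsHMGB1 against PBS, 6 and 4 with LPS, and 9 and 3 with LPS/IFNγ, beside 23.3% and 24.2%, 26.7% and 36.2%, and 29% and 31.2% of all tested genes. The counts without PBS replicate 3 were 7 and 7, 7 and 6, and 9 and 5, beside 29.8% and 29%, 32.9% and 38.3%, and 33.3% and 34.4%. The beta chains *Csf2rb* and *Csf2rb2*, which signal through JAK2 for GM-CSF and related cytokines, rose with LPS/IFNγ, to 177100 ± 5030 and 194000 ± 4640 normalized counts from 41130 ± 7960 and 47990 ± 14100 in PBS. With LPS they were at 41310 ± 778 and 39010 ± 1430. They are close copies, so reads may have been split between them. With frHMGB1 2 of the 16 were called higher and 0 lower, beside 1.31% and 5.69% of all tested genes. Without PBS replicate 3 these counts were 3 and 3, beside 8.41% and 9.09%. The 2 were *Csf2ra*, the partner of *Csf2rb* (log2 fold change 0.79 ± 0.19, edgeR adjusted p = 0.0193), and *Osmr* (1.18 ± 0.23, edgeR adjusted p = 0.00612). *Osmr* was named after its values were seen. *Il6st*, the shared chain gp130, was lower with LPS (log2 fold change -1.02 ± 0.29, edgeR adjusted p = 0.00498) and with dsHMGB1 (-0.75 ± 0.29, edgeR adjusted p = 0.0405). With LPS/IFNγ it was not called (-0.34 ± 0.29, edgeR adjusted p = 0.27), and was called lower without PBS replicate 3 (-0.69, edgeR adjusted p = 9.14e-07).

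The genes most like each of the 9 over the 15 libraries, by Pearson's r of log2(normalized count + 1) among 10101 other protein-coding genes, are given as a description. The libraries fall into 5 conditions, so r mostly reflects the 5 condition levels. *Ifnb1* was nearest to *AW011738* (r = 0.997), *Gatad2a* (0.996) and *Ifi206* (0.995), and *Jak2* to *Tor1aip1*, *Cflar* and *Crybg1* (r = 0.999 for each). *Ifnar1* was nearest to *Brox*, *Nde1* and *Slc28a2* (0.990, 0.989 and 0.986) and *Ifnar2* to *Rabgef1*, *Inhba* and *Elfn1* (0.997, 0.994 and 0.994). *Ifngr1* was nearest to *Osbpl3*, *Abcc5* and *Gripap1* (0.982, 0.976 and 0.973) and *Ifngr2* to *Rilpl1*, *Adap1* and *Tcirg1* (0.969, 0.965 and 0.953). For *Jak1* they were *Notch1*, *Acbd3* and *Mapk6* (0.998, 0.997 and 0.997), for *Jak3* *Tnc*, *Slc35d1* and *Cyth1* (0.994, 0.993 and 0.992), and for *Tyk2* *Ell2*, *Slc7a8* and *Gspt1* (0.995, 0.995 and 0.994). Among the 9 themselves, r was 0.99 between *Jak2* and *Ifnb1*, 0.913 between *Ifnar1* and *Ifnar2*, and -0.46 between *Jak3* and *Ifngr2*.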

How the data were processed

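The raw counts per Ensembl identifier were deposited by the authors, who used STAR and GRCm38 for alignment of paired-end reads from stranded mRNA libraries. How reads were counted (program, annotation, strand setting) was not stated, so overlapping genes may share reads. CASAVA, STAR and DESeq2 are named in the submitters' processing notes. No column was without a sample, and 51661 of 51763 identifiers were found in GENCODE M21.

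Genes were filtered with filterByExpr and tested on the deposited counts in edgeR 4.0.16 by its quasi-likelihood F test (TMM, 15 libraries in 1 fit, no covariates), with Benjamini-Hochberg adjustment over 16919 genes. A gene is called at an adjusted p under 0.05. Normalized counts, unshrunken log2 fold changes and SEs come from DESeq2 1.42.0, in R 4.3.3. The script was tested on simulated data in which changed genes had a set minimum mean count. An earlier version, which also changed genes of lower count, had recovered fewer of them than the test required. Levels per kb use the merged exons of GENCODE M21. No pair of replicates agreed within sampling noise (lowest chi-square per degree of freedom 4.31). Of 24 pairs of same-numbered libraries in compared conditions, 1 had residuals correlated above r = 0.1, so the numbers were not taken as pairs.

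Members and lists were chosen with earlier results of these data known. Named genes are the 9 members, up to 4 genes of highest mean normalized count in each list, and the partner and inhibitor genes written into the rule. *Tmem173*, *Ikbke* and *Osmr* were added after their values were seen. *Mb21d1* was found as *Cgas*. Of each member, the 3 most correlated protein-coding genes are named, from those whose mean normalized count reached the minimum set for this. Lists are described by counts and medians without a list test. The alternatives tried were RLE factors, the Wald test of DESeq2, protein-coding genes alone, no filter, 1 CPM in 3 libraries, 2 conditions fitted alone, a replicate block, each library left out in turn and, chosen after seeing the data, scaling by total count. PCR copies are not independent molecules, so counting intervals cover counting error alone.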

Additional observations from a re-analysis of the deposited data

How the results depend on the processing

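Of the 72 results on single members (9 genes in 8 comparisons), all 72 kept direction and side of the threshold with a filter of 1 CPM in 3 libraries and with the replicate block, whose same-numbered libraries had residual correlations from -0.34 to 0.336. The replicate block changed none of the 8 counts of called members either: it gave 0, 8, 8, 8, 5, 6, 7 and 8. In the same order, it called 176, 3856, 4487, 4883, 2598, 2490, 2651 and 4538 of all 16919 tested genes higher. Those called lower were 839, 3755, 5849, 5013, 1450, 1669, 2720 and 3756. With RLE normalization and with no filter 71 of 72 were kept, with DESeq2's Wald test 67, with total count scaling 53, and with 2 conditions fitted alone 64 of 71. In frHMGB1 against PBS, DESeq2 called 2 members, beside 502 higher and 1258 lower of all 16919 genes. Leaving out 1 library gave 0 to 2, the highest without PBS replicate 3, beside 8.41% of all tested genes higher and 9.09% lower. LPS/IFNγ against LPS gave 8 called members with these conditions fitted alone, beside 4564 higher and 4435 lower of 14738 genes. For dsHMGB1 against frHMGB1, total count scaling gave 5, beside 3337 higher and 6340 lower of 16919 genes.

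Total count scaling, chosen after seeing the data, shifted the median log2 fold change of all genes against PBS by -0.35 with dsHMGB1, -0.62 with LPS and -0.66 with LPS/IFNγ, by 0.28 for dsHMGB1 against LPS, 0.30 against LPS/IFNγ and -0.38 against frHMGB1. In these 6 comparisons the share of higher calls went from 49%, 42.5%, 48.2%, 59.9%, 49.8% and 54.6% to 28.1%, 21.9%, 25.3%, 84%, 74.3% and 34.5%. *Ifngr2* reversed under it, to 0.026 for frHMGB1, -0.30 for dsHMGB1 and -0.49 for LPS against PBS, 0.20 for dsHMGB1 against LPS and -0.32 for dsHMGB1 against frHMGB1. *Tyk2* reversed to 0.29 for dsHMGB1 against LPS, *Ifnar1* to 0.20 for dsHMGB1 against LPS/IFNγ and *Jak3* to -0.041 for dsHMGB1 against frHMGB1. With protein-coding genes alone, *Tyk2* for dsHMGB1 against LPS became 0.008.

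With 1 library left out, uncalled values changed sign in frHMGB1 against PBS, where log2 fold changes ran from -2.951 to 0.792 for *Ifnb1*, -0.036 to 0.014 for *Ifngr2*, -0.042 to 0.544 for *Jak1* and -0.029 to 0.33 for *Jak2*. *Tyk2* for dsHMGB1 against LPS ran from -0.066 to 0.002. The causes of these changes were not tested. Depth limits *Ifnb1* in PBS and frHMGB1 and the interferon alpha genes, which rest on few reads.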
